A study of Mus musculus with 12 samples.

Results

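The elastic fibre genes described here are 10 genes that encode fibrillin-1, its associated glycoproteins, elastin and fibulins, measured in the left ventricle (LV) of mouse offspring: *Fbn1*, *Mfap2*, *Mfap4*, *Mfap5*, *Eln*, *Emilin1*, *Fbln1*, *Fbln2*, *Fbln5* and *Efemp1*. They were found by mapping Ensembl identifiers to mouse symbols among the 46983 genes of the count files, and all 10 were present and passed the filter on low counts that kept 14706 genes. The genes were chosen with group differences of these same samples already known, so every difference between groups below is a description of these hearts and not independent evidence. *Fbn1*, *Fbln1* and *Mfap5* are also on the list of genes that the study selected from the same samples in diabetes-exposed *Hif1a*+/- offspring, and *Fbn1* is on its list for diabetes-exposed *Wt* offspring. The study also measured a selected set of genes by RT-qPCR. Its primer list includes *Fbn1*, and also *Pi16* and *Cd248*, which appear among the marker genes below. Those measurements are not used here.

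Dams of the FVB strain, either non-diabetic or made diabetic with streptozotocin, were mated with non-diabetic males carrying a heterozygous global deletion of *Hif1a*, the gene for the oxygen-regulated subunit of hypoxia-inducible factor 1. Each of the 4 groups held 3 LV samples from offspring aged 12 weeks: *Wt* from non-diabetic pregnancy (replicates 25, 42 and 89, named by animal number), *Wt* from diabetic pregnancy (7, 50 and 80), *Hif1a*+/- from non-diabetic pregnancy (14, 32 and 44) and *Hif1a*+/- from diabetic pregnancy (66, 72 and 77). Diabetes was induced in the dam, the deletion was present in every cell type, and the samples of a group came from several litters. RNA was read from the 3′ end of transcripts, and levels are given as CPM, the count scaled to the library total with TMM factors, which compare samples for 1 gene but not 1 gene with another.

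The total count was between 16132442 and 39812939 per sample. The targeted gene did not check the genotype labels: normalised *Hif1a* counts were 1249 to 1618 in non-diabetic *Wt*, 1081 to 1328 in diabetic *Wt*, 1769 to 2004 in non-diabetic *Hif1a*+/- and 1448 to 1844 in diabetic *Hif1a*+/-, and 3′ reads need not come from the deleted stretch. The sex given for the offspring was female in the sample labels and male in the design text. Transcripts of 4 Y-linked genes exceeded *Xist* in 11 of the 12 samples, and diabetic *Hif1a*+/- replicate 72 was the exception, with a Y-linked sum of 25.6 against 3539 for *Xist* in normalised counts. Red cell transcripts were at 7317 CPM in non-diabetic *Wt* replicate 25 and at 185 to 1770 CPM in the other samples. The group differences of the 10 genes are therefore also described without replicates 72 and 25 where these moved them.

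Elastic fibres give arteries, valves and the cardiac interstitium their recoil. They form when elastin is laid down on a scaffold of fibrillin microfibrils, guided by fibulins and cross-linked by lysyl oxidases. In the heart the genes are expressed mainly by fibroblasts and by the mural cells of vessels, and fibrillin microfibrils also hold latent TGF-β in the matrix. In LV tissue, fewer cells of a type and less RNA per cell cannot be told apart.

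Promoter windows were available for 7 of the 10 genes in RefSeq (GRCm38.p6), and those of *Fbn1*, *Fbln1* and *Fbln2*, which were higher in every diabetes-exposed *Hif1a*+/- sample than in every non-diabetic sample, are shown beside that of *Fbln5*, which was level across the groups. Each runs from 250 bases before to 50 bases after the annotated start, read 5′ to 3′ on the gene's strand. Capitals mark the core that hypoxia-inducible factors bind, searched as ACGTG or GCGTG on both strands.

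*Fbn1* (chr2:125506389-125506688, minus strand): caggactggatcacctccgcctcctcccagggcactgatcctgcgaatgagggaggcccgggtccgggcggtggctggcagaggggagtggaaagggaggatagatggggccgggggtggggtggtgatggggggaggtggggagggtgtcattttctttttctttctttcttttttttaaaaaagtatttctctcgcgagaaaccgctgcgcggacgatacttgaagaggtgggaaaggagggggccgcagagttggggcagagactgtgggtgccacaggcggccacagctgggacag
*Fbln1* (chr15:85205699-85205998, plus strand): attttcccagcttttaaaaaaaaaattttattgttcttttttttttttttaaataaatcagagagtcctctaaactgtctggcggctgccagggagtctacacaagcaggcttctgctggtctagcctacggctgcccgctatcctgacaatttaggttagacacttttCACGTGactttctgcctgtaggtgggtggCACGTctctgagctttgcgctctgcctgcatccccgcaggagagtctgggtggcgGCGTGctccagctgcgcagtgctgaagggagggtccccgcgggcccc
*Fbln2* (chr6:91212514-91212813, plus strand): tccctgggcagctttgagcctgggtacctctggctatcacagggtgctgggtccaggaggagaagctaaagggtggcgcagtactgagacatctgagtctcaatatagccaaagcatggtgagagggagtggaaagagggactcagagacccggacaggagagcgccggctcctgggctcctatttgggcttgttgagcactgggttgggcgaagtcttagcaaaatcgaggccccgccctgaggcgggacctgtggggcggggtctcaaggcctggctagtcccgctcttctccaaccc
*Fbln5* (chr12:101819070-101819369, minus strand): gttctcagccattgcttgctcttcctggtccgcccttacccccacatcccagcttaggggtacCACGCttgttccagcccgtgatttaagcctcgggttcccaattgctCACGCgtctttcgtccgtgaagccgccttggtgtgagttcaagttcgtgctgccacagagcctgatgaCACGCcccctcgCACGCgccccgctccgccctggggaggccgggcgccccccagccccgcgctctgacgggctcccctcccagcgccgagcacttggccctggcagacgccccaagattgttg

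The *Fbln1* window held 4 matches to the hypoxia core, a pair of which are the same CACGTG read on its 2 strands, and the upstream *Fbln5* window shown held 4. The *Fbn1* and *Fbln2* windows held 0, and so did a second, downstream *Fbln5* window (chr12:101818435-101818734). Of 32851 promoter windows of this length, 43.8% held at least 1 match, so such a match is common. The GC box GGGCGG occurred 1 time in the *Fbn1* window, 2 times in that of *Fbln2*, 2 times in the *Fbln5* window shown and 0 times in the *Fbln1* window shown, against 35.7% of all windows with at least 1. A second, overlapping *Fbln1* window (chr15:85205758-85206057) held 2 GC boxes and also 4 matches to the hypoxia core. Neither the TATA box TATAAA (13.6% of all windows) nor the AP-1 site TGAGTCA or TGACTCA (5.2%) was found in any window of the 7 genes. Of the genes not shown, 1 window of *Mfap2* and the windows of *Emilin1* and *Efemp1* held 1 match each to the hypoxia core. So few genes, picked by their levels, cannot show whether these letters go with the differences, and this was not tested.

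In the diabetes-exposed *Hif1a*+/- LV, *Fbn1*, *Mfap5*, *Fbln1* and *Fbln2* were above both non-diabetic groups in all 3 samples, by 1.24- to 1.92-fold in group means against non-diabetic *Wt*. For *Fbln2* the gap between the nearest samples of diabetic *Hif1a*+/- and non-diabetic *Wt* was within counting error. *Mfap4* and *Emilin1* had higher means than both with overlapping samples, by 1.37- and 1.25-fold against non-diabetic *Wt*. The mean of the sparsely covered *Mfap2* differed from both by less than the SE of its fit, so no direction is read from it. The means of *Eln*, *Fbln5* and *Efemp1* were not above that of non-diabetic *Wt*. Thus 4 of 10 genes were higher in every sample than in non-diabetic *Wt*, where 7.47% of all genes tested were, and 4 of 10 were higher than in non-diabetic *Hif1a*+/-, where 11.1% were. Against diabetic *Wt*, 3 of 10 were higher in every sample (*Fbn1*, *Mfap5* and *Emilin1*), with 4.32% of all genes. Without replicate 72 the counts were 5, 5 and 3, with 11.9%, 15.4% and 7.48% of all genes, and the gene added was *Efemp1*. Without replicate 25 the count against non-diabetic *Wt* was again 4, of the same genes, with 11.1% of all genes.

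**Figure D1:**
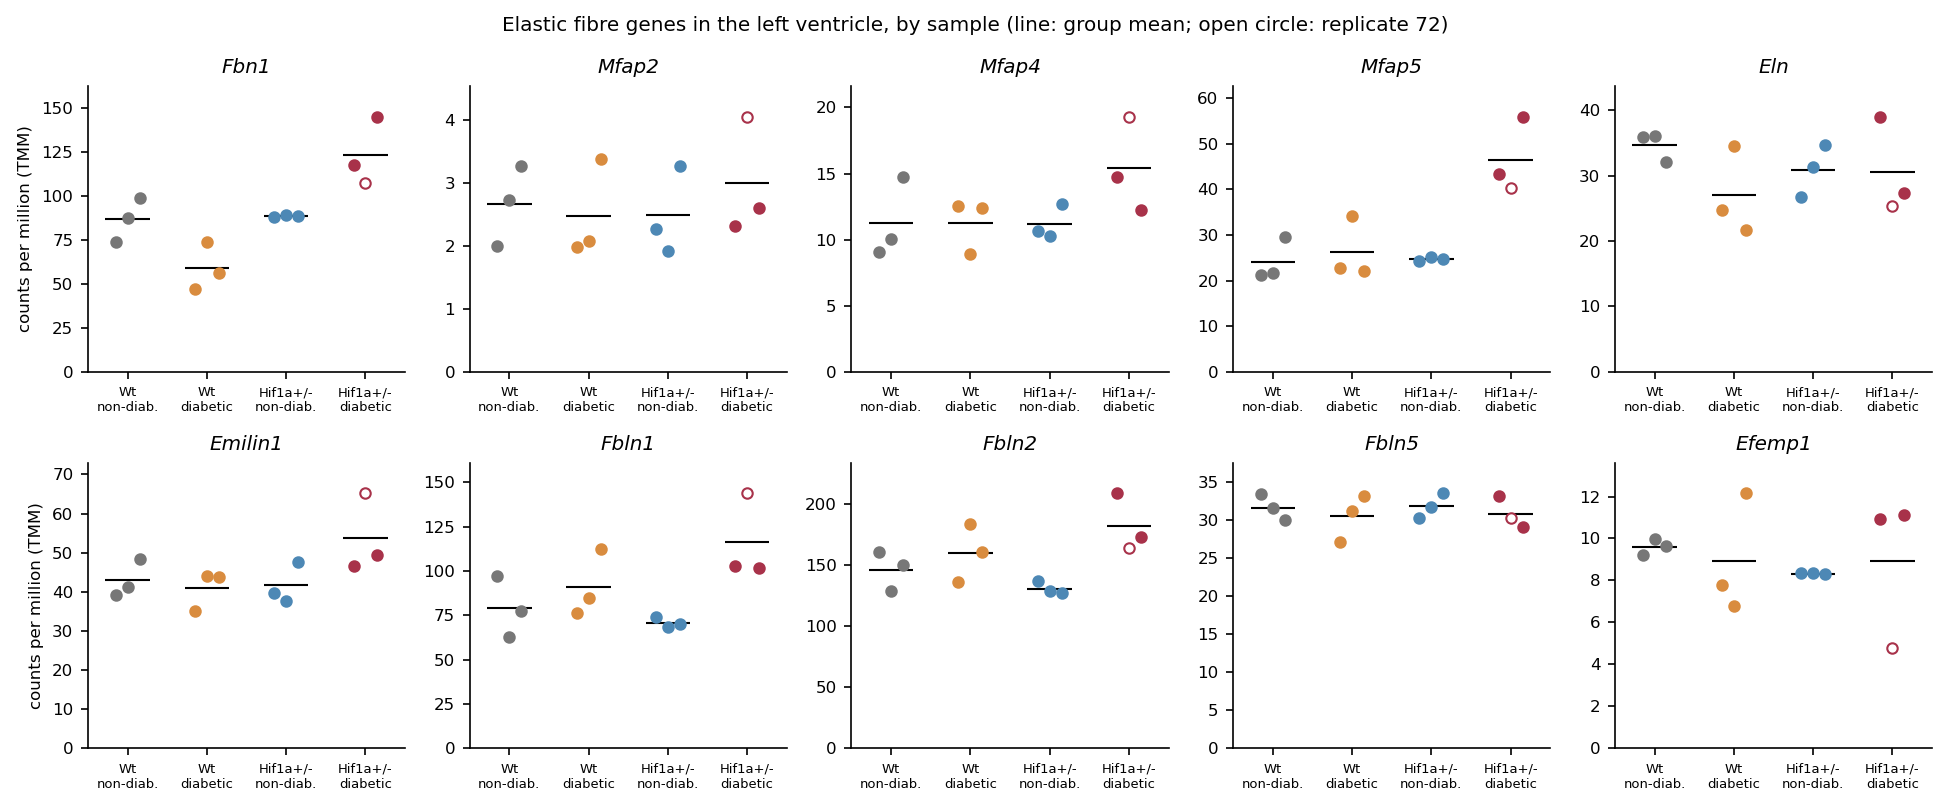
Level of each of the 10 genes in CPM after TMM scaling (vertical axes, from 0) in the 4 groups of 3 samples. Points are samples, lines are group means and the open circle is diabetic *Hif1a*+/- replicate 72. *Mfap5* lies between 40.3 and 56.0 CPM in diabetic *Hif1a*+/- and at 34.3 CPM or below elsewhere, whereas *Fbln5* lies between 27.2 and 33.5 CPM in all samples.

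*Fbn1* encodes fibrillin-1, the backbone of the microfibril (ENSMUSG00000027204, GRCm38 chr2:125300594-125507993, minus strand). It was at 74.0, 87.3 and 98.5 CPM in non-diabetic *Wt*, at 73.5, 47.1 and 56.3 CPM in diabetic *Wt* (replicates 7, 50 and 80), at 87.9, 89.0 and 88.6 CPM in non-diabetic *Hif1a*+/- and at 118, 107 and 145 CPM in diabetic *Hif1a*+/-. It was thus the gene with opposite directions in the 2 genotypes: the diabetic samples were all below the non-diabetic ones in *Wt* and all above them in *Hif1a*+/-. In *Wt* the separation was narrow, since the highest diabetic sample (73.5 CPM) and the lowest non-diabetic sample (74.0 CPM) differed by less than their counting error of about 2.43%. For genes lower in every diabetic *Wt* sample the share was 3.4% of all genes, and *Fbn1* was 1 of 10 here. In non-diabetic *Hif1a*+/- the coefficient of variation of *Fbn1* was 0.62%, under its counting error of 2.34%. The values of that group lay closer together than counting alone would leave them.

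In the edgeR quasi-likelihood fit the log2 fold change of *Fbn1* was 0.51 ± 0.15 (SE) for diabetic *Hif1a*+/- against non-diabetic *Wt*, 0.48 ± 0.15 against non-diabetic *Hif1a*+/-, 1.06 ± 0.16 against diabetic *Wt*, and -0.55 ± 0.15 for diabetic against non-diabetic *Wt* (n = 3 per group, edgeR adjusted p = 0.446, 0.294, 0.157 and 1.00). The last 2 share the diabetic *Wt* samples, so the larger difference between the diabetic groups holds the lower *Wt* level within it. The genotype by diabetes interaction was 1.03 ± 0.22 (edgeR adjusted p = 0.997, DESeq2 adjusted p = 0.108), and without replicate 72 the DESeq2 adjusted p was 0.0153. By DESeq2 *Fbn1* was called between the diabetic groups (adjusted p = 1.35e-06), and in all 12 fits that each left out 1 sample. It was not called against either non-diabetic group with all samples, but against non-diabetic *Wt* it was called without diabetic *Wt* replicate 7 (0.0489) or 50 (0.0871) or non-diabetic *Wt* replicate 89 (0.046), and against non-diabetic *Hif1a*+/- without replicate 72 (0.099) or any 1 diabetic *Wt* sample (0.0446 to 0.0989). Without replicate 72 the log2 fold changes of *Fbn1* were 0.60, 0.58 and 1.15 against non-diabetic *Wt*, non-diabetic *Hif1a*+/- and diabetic *Wt*. Without replicate 25 the first was 0.41, and the difference between diabetic and non-diabetic *Wt* was -0.65. *Gm9913*, a gene on the opposite strand within *Fbn1*, had a mean of 0.113 CPM.

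*Mfap5* encodes microfibril-associated glycoprotein 2, which binds fibrillin (ENSMUSG00000030116, chr6:122505845-122529290, plus strand). It was at 21.3, 21.6 and 29.6 CPM in non-diabetic *Wt*, at 34.3, 22.7 and 22.1 CPM in diabetic *Wt*, at 24.3, 25.3 and 24.8 CPM in non-diabetic *Hif1a*+/- and at 43.3, 40.3 and 56.0 CPM in diabetic *Hif1a*+/-. The diabetic *Hif1a*+/- samples were above all 9 others, and the other 3 groups overlapped. In non-diabetic *Hif1a*+/- the coefficient of variation of *Mfap5* was 2.0%, also under its counting error of 4.42%. The log2 fold change was 0.94 ± 0.18 against non-diabetic *Wt*, 0.91 ± 0.18 against non-diabetic *Hif1a*+/- and 0.81 ± 0.18 relative to diabetic *Wt* (edgeR adjusted p = 0.306, 0.161 and 0.734). DESeq2 called it in all 3 (adjusted p = 0.00253, 0.00155 and 0.0279). In the first 2 of these it called *Mfap5* in each of the 12 fits without 1 sample, and against diabetic *Wt* it lost the call without replicate 77 (0.304) or diabetic *Wt* replicate 50 (0.895). Without replicate 72 the 3 values of *Mfap5* were 1.03, 1.01 and 0.91, and without replicate 25 the first was 0.86.

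Of the other microfibril glycoproteins, *Mfap4*, which binds elastin and fibrillin, had group means of 11.3, 11.3, 11.2 and 15.4 CPM in non-diabetic *Wt*, diabetic *Wt*, non-diabetic *Hif1a*+/- and diabetic *Hif1a*+/-. Its diabetic *Hif1a*+/- samples, at 14.8, 19.3 and 12.3 CPM, overlapped every other group, and the log2 fold change against non-diabetic *Wt* was 0.44 ± 0.21. That value rested on single samples, at 0.68 without non-diabetic *Wt* replicate 89, where DESeq2 called it (adjusted p = 0.0759), at 0.31 without replicate 25 and at 0.26 without replicate 72. The end of *Mfap4* overlaps *Mapk7* on the opposite strand (mean 10.65 CPM), and without a stated strand setting reads in that stretch cannot be assigned with certainty. *Mfap2*, which encodes microfibril-associated glycoprotein 1, was the lowest covered of the genes, with 1.91 to 4.05 CPM over the 12 samples and its highest value in replicate 72. A difference in *Mfap2* was not detectable at this depth and spread, with a 95% interval of -0.51 to 0.72 in log2 against non-diabetic *Wt*.

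*Eln*, the gene for elastin itself, was not higher in diabetic *Hif1a*+/- in the way of *Fbn1*. It was at 36.0, 36.1 and 32.1 CPM in non-diabetic *Wt*, at 34.5, 24.8 and 21.8 CPM in diabetic *Wt*, at 26.8, 31.4 and 34.6 CPM in non-diabetic *Hif1a*+/- and at 39.0, 25.4 and 27.4 CPM in diabetic *Hif1a*+/-. All 4 groups overlapped. The 95% interval for diabetic *Hif1a*+/- against non-diabetic *Wt* was -0.56 to 0.22 in log2, and the largest difference was that between diabetic and non-diabetic *Wt*, -0.35 ± 0.18 (edgeR adjusted p = 1.00). It moved to -0.22 without diabetic *Wt* replicate 80 and to -0.57 without diabetic *Wt* replicate 7. *Emilin1*, which encodes a glycoprotein at the interface of elastin and microfibrils, was at 46.5, 65.2 and 49.3 CPM in diabetic *Hif1a*+/- and at 35.0 to 44.1 CPM in diabetic *Wt*, with no overlap between the diabetic groups. It overlapped both non-diabetic groups, and its log2 fold change against diabetic *Wt* was 0.39 ± 0.14. Without replicate 72 the *Emilin1* values fell to 0.16 against non-diabetic *Wt* (from 0.32), 0.21 against non-diabetic *Hif1a*+/- (from 0.36) and 0.23 relative to diabetic *Wt* (from 0.39).

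**Figure D2:**
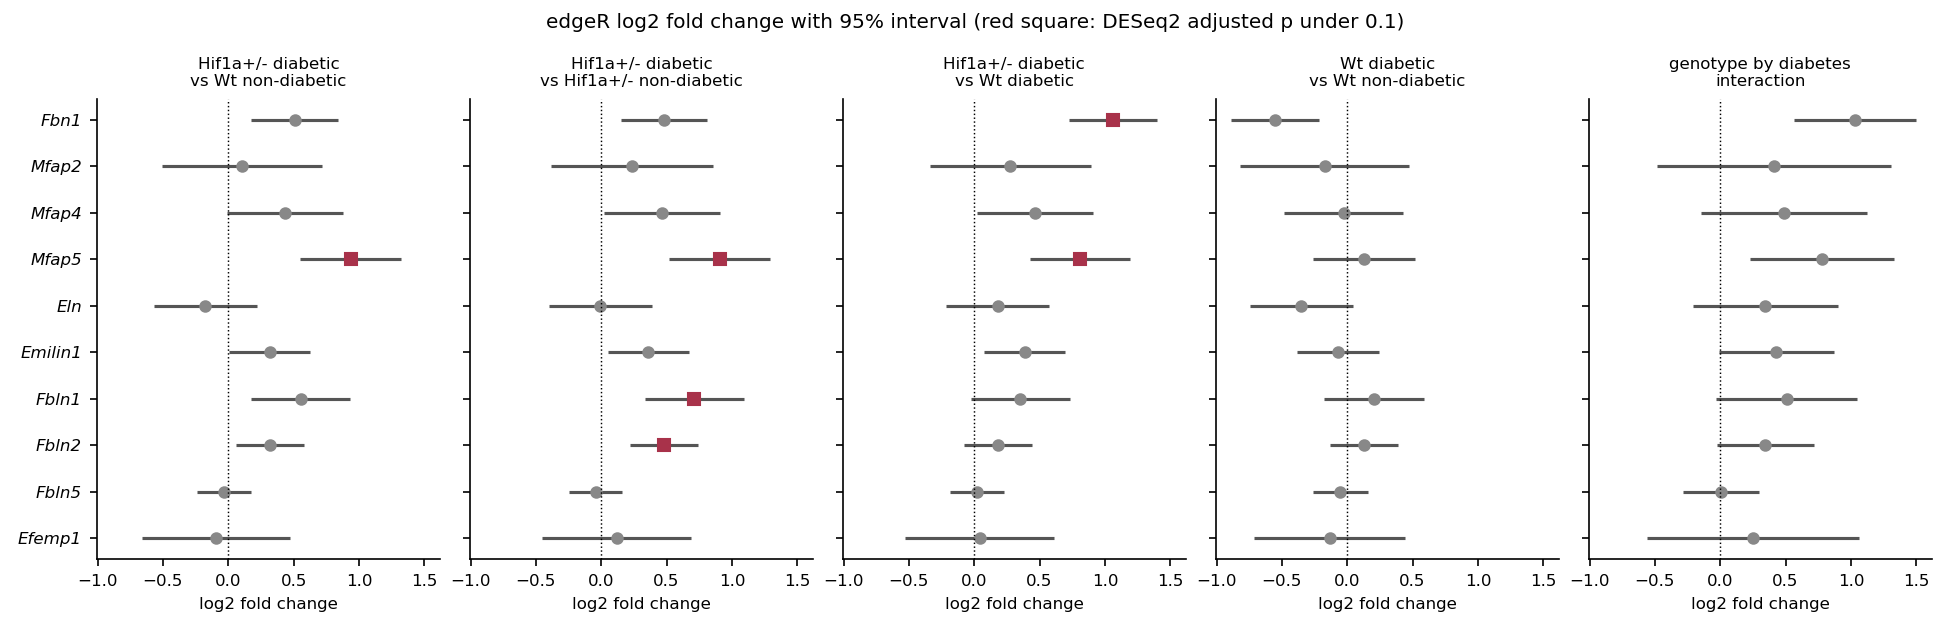
edgeR log2 fold changes (points and squares, horizontal axes) of the 10 genes with their 95% intervals (lines) in 4 comparisons and in the genotype by diabetes interaction. Red squares mark genes with a DESeq2 adjusted p under 0.1. *Mfap5* is a square in the 3 comparisons of diabetic *Hif1a*+/-, *Fbn1* (1.06) in the one with diabetic *Wt*, and *Fbln1* (0.71) and *Fbln2* (0.48) in the one with non-diabetic *Hif1a*+/-.

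The fibulins divided. *Fbln1*, a calcium-binding glycoprotein of elastic fibres and basement membranes, was at 97.1, 62.8 and 77.4 CPM in non-diabetic *Wt*, at 84.7, 76.2 and 112 CPM in diabetic *Wt*, at 73.9, 68.6 and 70.0 CPM in non-diabetic *Hif1a*+/- and at 103, 144 and 102 CPM in diabetic *Hif1a*+/-. The highest value was that of replicate 72, and the lowest diabetic *Hif1a*+/- sample was above every non-diabetic sample but below 1 of the diabetic *Wt* samples. The log2 fold change was 0.56 ± 0.18 against non-diabetic *Wt* and 0.71 ± 0.18 against non-diabetic *Hif1a*+/- (edgeR adjusted p = 0.453 and 0.212), and DESeq2 called only the latter with all samples (0.0184). Against non-diabetic *Wt* it called *Fbln1* without replicate 25 (0.0728), where the log2 fold change was 0.73, and without diabetic *Wt* replicate 80 (0.0687). Without replicate 72 the log2 fold change was 0.38 against non-diabetic *Wt* and 0.54 against non-diabetic *Hif1a*+/-. The DESeq2 call was lost without replicate 72 (0.193) and without non-diabetic *Hif1a*+/- replicates 32 (0.202) or 44 (0.12).

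*Fbln2*, which binds fibrillin and the elastin precursor, was at 209, 164 and 173 CPM in diabetic *Hif1a*+/-, at 137, 129 and 127 CPM in non-diabetic *Hif1a*+/-, at 129 to 160.3 CPM in non-diabetic *Wt* and at 136 to 183 CPM in diabetic *Wt*. Its diabetic *Hif1a*+/- samples were above both non-diabetic groups, by log2 0.32 ± 0.12 and 0.48 ± 0.12 (edgeR adjusted p = 0.494 and 0.216), and the diabetic groups overlapped. The separation from non-diabetic *Wt* was narrow. Replicate 72 (163.8 CPM) and non-diabetic *Wt* replicate 25 (160.3 CPM) lay within their combined counting error, about 1.47% and 1.84% in the 2 groups. The first value was 0.21 without replicate 66, and 0.39 without either replicate 72 or replicate 25. DESeq2 called it against non-diabetic *Hif1a*+/- (0.0382), but not without diabetic replicate 66 (0.241) or 77 (0.117) or non-diabetic replicate 32 (0.285) or 44 (0.243).

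*Fbln5*, which tethers elastin to cells through integrins, was the steadiest of the 10 genes. It lay between 27.2 and 33.5 CPM in all 12 samples, its group means were within 1.04-fold of each other, and the 95% interval against non-diabetic *Wt* was -0.24 to 0.17 in log2. *Efemp1*, which encodes fibulin-3, was at 10.9 and 11.1 CPM in diabetic *Hif1a*+/- replicates 66 and 77 but at 4.79 CPM in replicate 72, the lowest of all samples. In non-diabetic *Hif1a*+/- it was at 8.37, 8.33 and 8.29 CPM, below all 3 non-diabetic *Wt* samples (9.21 CPM or above). Its coefficient of variation there was 0.46%, under the counting error of 7.63%, so the gap of 1 of 10 genes lower in every sample (2.26% of all genes), with a fitted log2 fold change of -0.21 ± 0.27, rests on 3 values that lay closer together than counting alone would leave them.

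Across the whole fit, edgeR called 0 of the 10 genes and 0 of 14706 genes (0.0%) at an adjusted p under 0.1 in each of the 5 comparisons of group pairs, in the interaction and in the test of any difference among the groups. At an unadjusted edgeR p under 0.05 there were 5, 6, 4, 1 and 0 of the 10 genes in diabetic *Hif1a*+/- against non-diabetic *Wt*, against its own genotype from non-diabetic pregnancy and against diabetic *Wt*, in diabetic against non-diabetic *Wt* and in non-diabetic *Hif1a*+/- against non-diabetic *Wt*. The shares of all genes were 8.93%, 12.1%, 5.67%, 2.79% and 0.945%. In the interaction it was 2 of 10 genes, with 2.6% of all genes, and for any difference 4 of 10, with 6.36%. DESeq2 called 1, 3, 2, 0 and 0 of the 10 genes at an adjusted p under 0.1, with 0.453%, 1.44%, 0.155%, 0.0148% and 0.00369% of all genes, 0 in the interaction (0.0%) and 3 for any difference (0.76%). The numbers over all genes depended on single samples: the 68 genes called against non-diabetic *Wt* became 10 without non-diabetic *Wt* replicate 42 and 371 without replicate 89, the 201 against non-diabetic *Hif1a*+/- became 40 without non-diabetic *Hif1a*+/- replicate 32 and 388 without diabetic *Wt* replicate 80, and the 24 against diabetic *Wt* became 2 without its replicate 50 and 316 without its replicate 80.

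The median log2 fold change of the 10 genes was 0.32 against non-diabetic *Wt*, 0.41 against non-diabetic *Hif1a*+/- and 0.31 relative to diabetic *Wt*, with 6 of 10 genes above 0 by more than their SE in each and 0 below 0 by as much, while the medians of all genes were -0.0046, -0.0080 and -0.0096. In diabetic against non-diabetic *Wt* and in non-diabetic *Hif1a*+/- against non-diabetic *Wt* the medians were -0.061 and -0.088, with 2 and 0 genes above 0 and 2 and 1 below 0 by more than their SE. The first 3 medians were 0.23, 0.35 and 0.27 without replicate 72, and without replicate 25 they were 0.29, 0.42 and 0.32. The 10 genes together summed to 606 to 625 CPM, without TMM scaling, in diabetic *Hif1a*+/-, and 441 to 495 in non-diabetic *Wt*, 373 to 507 in diabetic *Wt* and 427 to 461 in non-diabetic *Hif1a*+/-. Most of the sum in diabetic *Hif1a*+/- came from *Fbln2* (27.1% to 33.7%), *Fbn1* (17.8% to 23.9%) and *Fbln1* (16.6% to 23.8%). *Mfap2*, *Mfap4* and *Efemp1* gave 3.2% or less each. The sum thus mostly repeats the levels of the abundant genes and is no separate result for all 10. The summed level in diabetic *Hif1a*+/- was above all other samples. Its 3 samples were close together, although replicate 72 carried more *Fbln1* and *Emilin1* and replicate 77 more *Fbn1* and *Mfap5*. Leaving out replicates 72 or 25 changes neither this order nor those of the ratios below, which are values of single samples.

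**Figure D3:**
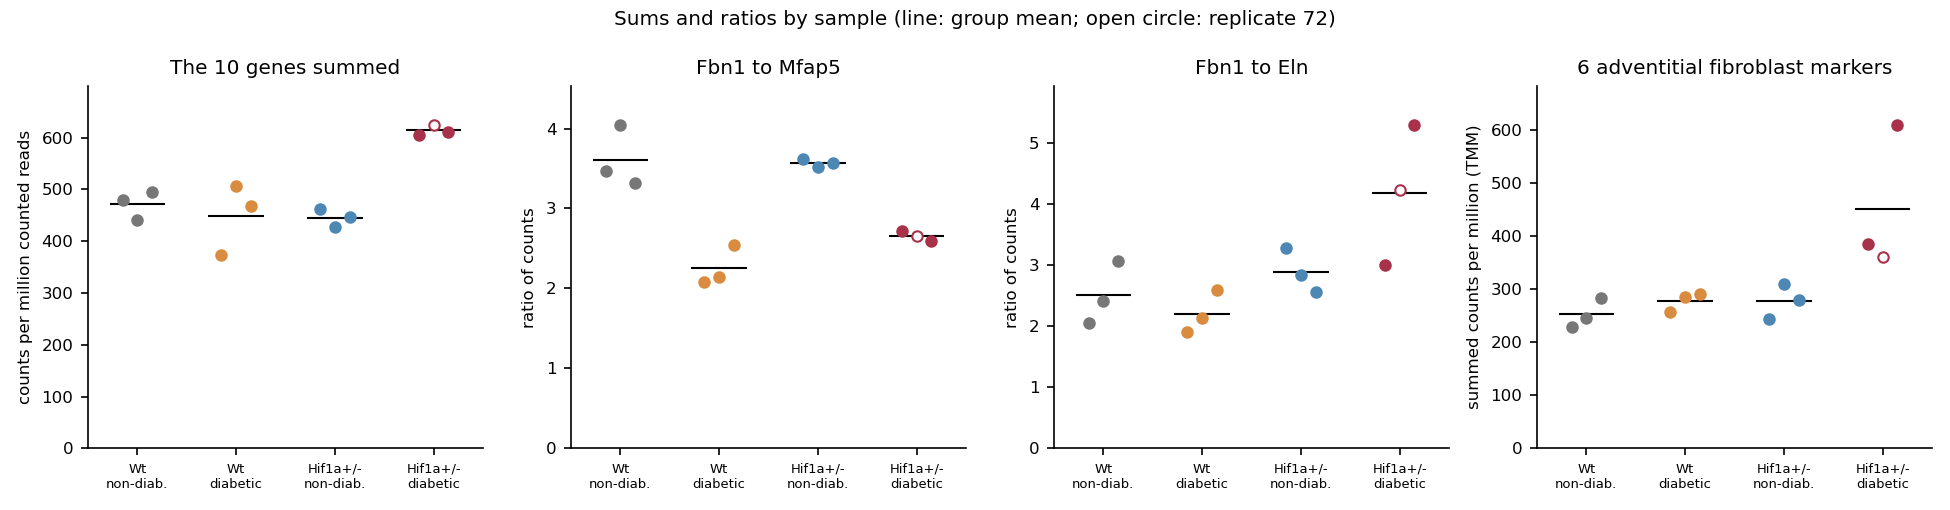
Summed level of the 10 genes in CPM without TMM scaling, ratios of counts of *Fbn1* to *Mfap5* and to *Eln*, and summed CPM of 6 adventitial fibroblast markers (vertical axes, from 0) in the 4 groups. Points are samples, lines are group means and the open circle is replicate 72. The sum is 606 to 625 in diabetic *Hif1a*+/- and 507 or lower elsewhere, and the *Fbn1* to *Mfap5* ratio is 2.71 or lower in both diabetic groups and 3.32 or higher in both non-diabetic groups.

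The proportion between the scaffold genes and elastin was also compared. The ratio of *Fbn1* to *Eln* counts was 3.01, 4.23 and 5.30 in diabetic *Hif1a*+/-, against 1.90 to 2.59 in diabetic *Wt* 2.06 to 3.07 in non-diabetic *Wt* and 2.56 to 3.28 in non-diabetic *Hif1a*+/-, so that replicate 66 lay within the range of both non-diabetic groups. The ratio of *Mfap5* to *Eln* was 1.11, 1.59 and 2.05 in diabetic *Hif1a*+/- and 0.593 to 1.02 in the other 9 samples. The ratio of *Fbn1* to *Mfap5* separated the samples by pregnancy in both genotypes, at 2.08 to 2.55 in diabetic *Wt* and 2.59 to 2.71 in diabetic *Hif1a*+/- against 3.32 to 4.05 in non-diabetic *Wt* and 3.52 to 3.62 in non-diabetic *Hif1a*+/-. These ratios were picked after the values had been seen, and no test was made of them.

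Within groups the genes did not vary as 1 block. Over the 12 samples, with each sample taken as its deviation from the group mean of log2 CPM, the 45 pairs of genes had a median Pearson's r of 0.15 and a range of -0.46 to 0.90, with 27 pairs above 0. *Fbn1* and *Mfap5* had the highest (0.90), followed by *Mfap2* and *Emilin1* (0.86) and by *Mfap2* and *Mfap4* (0.73). *Emilin1* and *Efemp1* had the lowest (-0.46), and *Eln* was at -0.46 with *Mfap2* and -0.44 with *Mfap4*. The value for *Emilin1* and *Efemp1* was 0.18 without replicate 72, those of *Eln* were -0.31 and -0.29, and *Fbn1* with *Mfap5* remained at 0.89. The median of these genes with other genes was -0.018. The points share library depth and group size, and the correlations are given as a description.

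**Figure D4:**
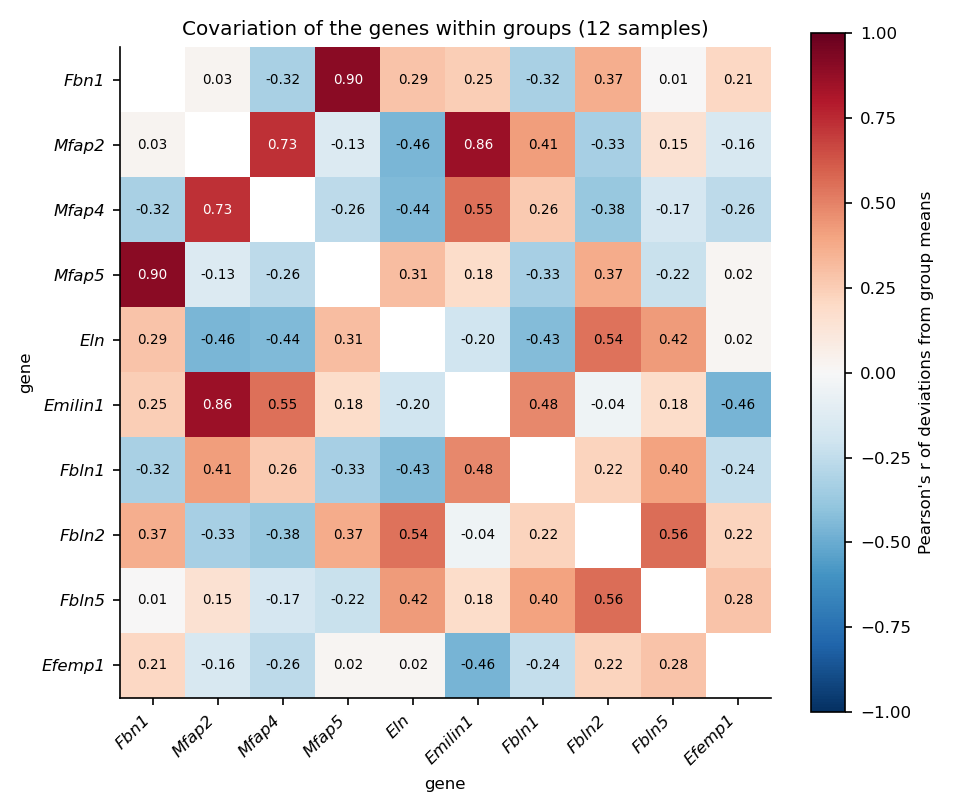
Pearson's r between each pair of the 10 genes (both axes), over the deviations of 12 samples from their group means in log2 CPM, with red for positive and blue for negative values. *Fbn1* with *Mfap5* (0.90) and *Mfap2* with *Emilin1* (0.86) stand out.

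Outside the group, the genes whose levels over all 12 samples were most like that of *Fbn1* were *Utp23*, *Nme1*, *Loxl1*, *Adamts2* and *Loxl2*, with Pearson's r of 0.88, 0.88, 0.85, 0.85 and 0.84 among 10362 genes ranked. Those most like *Mfap5* were *Fstl1*, *Pi16*, *Tgfbr2*, *Trim72* and *Nbl1*, with r from 0.91 to 0.95. Among those most like *Eln* were *Dazap1*, *Slc30a6*, *Zfp319* and *Tmem104*, with r from 0.84 to 0.90, and none of these is on the lists of matrix genes used here. These correlations include the group differences, and each is the top of a long ranking. Leaving out the 2 samples farthest from the median of a gene narrows its range, which by itself tends to lower r. Without those of *Fbn1*, its 5 values were 0.73, 0.74, 0.78, 0.62 and 0.65. With the same step for *Mfap5* and *Eln*, r was 0.79 to 0.89 and 0.76 to 0.85 for the genes named.

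The other genes of the pathway were taken from lists fixed for this description. Of the 5 lysyl oxidases, which cross-link elastin and collagen, 4 had a fold change above 0 and 1 below 0 in diabetic *Hif1a*+/- against non-diabetic *Wt*, with a median log2 fold change of 0.34. The extremes were *Loxl2* (0.59 ± 0.17) and *Lox* (-0.04 ± 0.29), and edgeR called 0 of the 5 in any comparison. DESeq2 called *Loxl2* against diabetic *Wt* alone, and not without replicate 72.

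Of 11 tested relatives of the 10 genes (latent TGF-β binding proteins, fibrillin-2, further fibulins and emilins), 8 were above 0 and 3 below 0 against non-diabetic *Wt*, with a median of 0.20. *Emilin2*, an emilin of vessels and blood clots, was highest (0.59 ± 0.15) and was called by DESeq2, and *Hmcn1*, which encodes hemicentin-1, was lowest (-0.24 ± 0.17) among those above 1 CPM. Of 13 microfibril-associated and binding proteins, 9 were above and 4 below 0, with a median of 0.18, from *Adamtsl3* (0.94 ± 0.28) to *Adamts17* (-0.31 ± 0.37), and DESeq2 called *Adamtsl4*. Of 5 tested proteases that cleave elastin, all 5 were above 0, with a median of 0.30, from *Ctss*, the gene for cathepsin S (0.68 ± 0.22), to *Ctsk*, the gene for cathepsin K (0.02 ± 0.25). edgeR called 0 genes of these lists in any comparison, and against non-diabetic *Hif1a*+/- DESeq2 called *Adamtsl3*, *Adamtsl4*, *Ctss* and *Mmp9*. Without replicate 72 the medians of the 4 lists against non-diabetic *Wt* were 0.30, 0.17, 0.10 and 0.17, and *Mmp9* was no longer called. Without replicate 25 they were 0.27, 0.20, 0.21 and 0.16, and neither *Emilin2* nor *Adamtsl4* was called against non-diabetic *Wt*. *Adamtsl4* and *Mmp9* were named after their values had been seen. *Emilin2*, *Loxl2*, *Adamtsl3*, *Adamtsl4*, *Ctss* and *Mmp9* are on the gene list that the study drew from these samples in diabetes-exposed *Hif1a*+/- offspring, which is not independent evidence of their direction.

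Of the 6 markers of adventitial fibroblasts, the cells of the outer vessel wall, *Pi16*, *Cd248* and *Clec3b* were higher in every diabetic *Hif1a*+/- sample than in the other 9. edgeR called 0 of the 6 in any comparison. Their smallest edgeR adjusted p was 0.306 against non-diabetic *Wt*, 0.150 against non-diabetic *Hif1a*+/- and 0.734 relative to diabetic *Wt*. Macrophage markers were also higher, and most smooth muscle markers were lower. The 6 adventitial markers summed to 386, 361 and 610 CPM in diabetic *Hif1a*+/- replicates 66, 72 and 77 and to 229 to 309 CPM in the other 9 samples, with *Pi16*, *Cd248* and *Clec3b* called by DESeq2 in all 3 comparisons of that group and none of the 6 at 0. All 6 were above 0 against non-diabetic *Wt*, with a median log2 fold change of 0.63, and 5 of 6 against non-diabetic *Hif1a*+/-, with 0.58. The other 3 markers differed less. *Dpp4* was at 0.33 against non-diabetic *Wt*, 0.25 against non-diabetic *Hif1a*+/- and -0.18 relative to diabetic *Wt*. In the same order *Sema3c* was at 0.34, 0.10 and 0.46, and *Ackr3* at 0.26, -0.04 and 0.02. Without replicate 25 *Pi16* was not called against either *Wt* group, and without replicate 72 *Clec3b* was not called against diabetic *Wt*. The 9 general fibroblast markers summed to 3323 to 4656 CPM in diabetic *Hif1a*+/- and overlapped every other group (2902 to 4824 CPM), and 9 of 9 were above 0 against non-diabetic *Wt*, with a median of 0.27, which was 0.15 without replicate 72 and 0.18 without replicate 25.

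The 6 macrophage markers summed to 408 to 579 CPM in diabetic *Hif1a*+/-, above both non-diabetic groups (205 to 389 CPM), and overlapped diabetic *Wt* (278 to 450 CPM). All 6 were above 0 in each comparison of that group, with medians of 0.66 against non-diabetic *Wt*, 0.82 against non-diabetic *Hif1a*+/- and 0.45 relative to diabetic *Wt*, and DESeq2 called *C1qa*, *Lyz2* and *Mrc1* against non-diabetic *Hif1a*+/-. The study's cell counts differ from this: F4/80-positive macrophages in LV sections were raised only in diabetes-exposed *Wt*. *Adgre1*, the gene for F4/80, was at 10.25 to 13.51 CPM in diabetic *Hif1a*+/- and at 7.76 to 10.62 CPM in diabetic *Wt*. Tissue RNA is not a count of cells, and the reason for the difference was not tested. The 6 smooth muscle markers summed to 361 to 437 CPM in diabetic *Hif1a*+/- and to 351 to 495 CPM elsewhere. Of these, 5 were below 0 against each non-diabetic group, with medians of -0.35 in both, and all 6 were below 0 relative to diabetic *Wt*, with -0.65. *Myh11*, which encodes smooth muscle myosin, was at 17.6, 15.5 and 16.9 CPM in diabetic *Hif1a*+/- and at 15.8 to 34.5 CPM elsewhere, and DESeq2 called it lower against non-diabetic *Hif1a*+/-, though not without replicate 72. Without replicates 72 or 25 the macrophage medians were 0.45 or more and the smooth muscle medians -0.33 or lower in each of the 3 comparisons. edgeR called 0 of the macrophage and smooth muscle markers in any comparison. None of these markers was at 0 in all samples. The markers of the 3 cell types that DESeq2 called (*Pi16*, *Cd248*, *Clec3b*, *C1qa*, *Lyz2*, *Mrc1* and *Myh11*) are on that same list of the study. The part of these cell types in the differences of the 10 genes was not tested.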

How the data were processed

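LV samples of 12 mouse offspring were sequenced as 3′ libraries, 3 in each of 4 groups taken from the sample labels. The 10 genes and the pathway and marker lists were chosen with earlier results of these data known. Ribosomal and mitochondrial reads were discarded by the authors before alignment to GRCm38 with STAR 2.5.2b and counting per gene with HTSeq. The deposited counts are whole reads per gene, and reads that the authors' tally lines give to no gene (3.34% to 4.61% for no feature) were left out. The authors also deposited normalised counts, a signal in which each count is divided by the DESeq2 size factor of its sample. Symbols came from GENCODE M21 (GRCm38), matched on Ensembl identifiers for 46488 of 46983 genes.

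Counts were tested with edgeR 4.0.16 (quasi-likelihood, TMM, low-count filter by group, 1 mean per group, 12 samples, 8 residual degrees of freedom) with Benjamini-Hochberg adjustment over 14706 genes and a threshold of 0.1, the study's own. The standard error is the fold change divided by the square root of its F statistic. DESeq2 1.42.0, limma 3.58.1 and other filters, scalings and sample sets were alternatives. A pseudocount of 1 CPM was used for log2 values. The tests were checked on simulated data. The biological coefficient of variation was 13.7%, so replicate spread rather than depth set the precision for genes above a few CPM. In all 12 pairs of samples from 1 group the counts differed beyond counting error. The named genes were the 10, the highest and lowest of each pathway list in diabetic *Hif1a*+/- against non-diabetic *Wt* above 1 CPM, and the 5 most like *Fbn1*, *Mfap5* and *Eln*, of which 1 is not reported here. DESeq2 without each sample, and groups, lists, sums and correlations compared without replicates 72 and 25, were chosen after seeing the data.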

Additional observations from a re-analysis of the deposited data

Results flagged for a closer look

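*Fbn1* drew attention because maternal diabetes went with opposite directions in the 2 genotypes. In *Wt* all 3 diabetic samples (47.1 to 73.5 CPM) were below the mean of the non-diabetic samples, and in *Hif1a*+/- all 3 (107 to 145 CPM) were above it. The interaction was 1.03 ± 0.22 in log2 (edgeR adjusted p = 0.997, unadjusted p = 0.000371; DESeq2 adjusted p = 0.108). Leaving out 1 sample moved the DESeq2 value between 5.31e-05, without diabetic *Wt* replicate 7, and 1, without diabetic *Hif1a*+/- replicate 77, with 0.0153 without replicate 72 and 0.0403 without replicate 25. The direction was the same in all of these, with an edgeR interaction between 0.89 and 1.23.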

How the results depend on the processing

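Of the 60 log2 fold changes of the 10 genes over 5 comparisons and the interaction, the 30 larger than their SE kept their sign under every alternative and without each sample in turn. Of the 30 others, 24 changed sign without at least 1 sample and 3 under another setting, so no direction is drawn from them. All 100 differences of group means moved by less than the replicate SD with a pseudocount of 0.1 or with the authors' normalised counts. No analysis paired or blocked by litter was made, because the sample labels name no dam or litter.

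The number of genes called by edgeR at an adjusted p under 0.1 was 0 in every comparison of the main fit. It was also 0 with at least 10 counts in every sample, with DESeq2 size factors and with the earlier quasi-dispersion estimation. Against non-diabetic *Wt*, diabetic *Hif1a*+/- had 68 genes (1 of the 10) by DESeq2 and 2 (1) by limma-voom, and leaving out 1 sample gave 0 to 2 genes and 0 of the 10. Against non-diabetic *Hif1a*+/- it had 201 (3) by DESeq2, 937 (4) by limma-voom, 51 (1) with no filter and 96 (2) with the compared groups alone, and 0 to 47 (0 to 1) without 1 sample, the 47 without replicate 72. Against diabetic *Wt* it had 24 (2) by DESeq2, 1 (1) by limma-voom and 4 (1) with no filter, and 0 to 6 (0 to 1) without 1 sample. Against non-diabetic *Wt*, diabetic *Wt* had 4 genes and non-diabetic *Hif1a*+/- 1 gene by DESeq2, with 0 of the 10. For any difference among the groups there were 130 (3) by DESeq2, 26 (2) with no filter and 0 to 5 (0 to 2) without 1 sample. By DESeq2 without 1 sample, 1 to 3, 1 to 4 and 1 to 2 of the 10 genes were called in the 3 comparisons of diabetic *Hif1a*+/-, 0 to 1 in diabetic against non-diabetic *Wt*, 0 to 2 in the interaction and 2 to 4 for any difference, while the genes called in all were 10 to 371, 40 to 388, 2 to 316, 0 to 15, 0 to 12 and 74 to 314. edgeR called *Mfap5* against non-diabetic *Hif1a*+/- without replicate 72 (adjusted p = 0.0847) or diabetic *Wt* replicate 7 (0.0701), and *Fbn1* against diabetic *Wt* without the same samples (0.0756 and 0.0129). The cause was not tested.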
